A study of Homo sapiens with 6 samples.

Results

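The LINC genes are the 111 of 16834 genes in the deposited table whose symbol is LINC followed only by digits. They were measured by poly(A)-selected RNA-seq of ribosome-associated RNA from HEK-293T, a line of human embryonic kidney origin, carrying a construct stably integrated at the Flp-In site. The construct, ccTaggedRP, encodes 2 tagged copies of the ribosomal protein RPL10a on 1 mRNA under the CAG promoter. One copy carries the Flag tag and part of Cdt1, which targets it for degradation from late S phase through mitosis. The other carries the HA tag and part of Geminin, which targets it for degradation in late G1 and early S phase. The 3 Flag-IPs and the 3 HA-IPs were made with an antibody to the respective tag from asynchronously cycling cells, so both groups share the cell line, the construct and the culture medium with hygromycin B. The tag, the antibody and the degron differ together between the groups and cannot be told apart. The comparison asked which LINC transcripts were more abundant in the RNA recovered through one tag than through the other. The labels do not say whether the replicates came from separate cultures, and the p-values then measure only the spread between these libraries. In bulk samples, fewer cells in a phase and less RNA per cell cannot be told apart.

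Long intergenic noncoding RNAs are transcribed by RNA polymerase II and, like mRNAs, are mostly capped, spliced and polyadenylated, but they were annotated as noncoding for want of a long conserved open reading frame. Symbols of this form are given to such genes when no function supplies a better name. Many of these RNAs stay in the nucleus and act on chromatin, while others are exported, and cytoplasmic ones can be bound by ribosomes on short open reading frames. LINC00467 is one for which a small peptide has been described.

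Because the RNA was recovered through a ribosomal protein, the longest open reading frames from ATG to stop are shown for the 2 LINC genes that differed between the IPs and for the LINC gene with the most reads. They are read 5′ to 3′ from the canonical transcript of each gene in GENCODE release 44 (GRCh38), with the start and stop codons in capitals. The frame of LINC02446 has 92 codons at bases 119 to 397 of a transcript of 677 bases. The frame of LINC02381 has 179 codons at bases 2252 to 2791 of 2792, of which the first 150 bases are given. That of LINC02693 has 80 codons at bases 80 to 322 of 1262.
LINC02446: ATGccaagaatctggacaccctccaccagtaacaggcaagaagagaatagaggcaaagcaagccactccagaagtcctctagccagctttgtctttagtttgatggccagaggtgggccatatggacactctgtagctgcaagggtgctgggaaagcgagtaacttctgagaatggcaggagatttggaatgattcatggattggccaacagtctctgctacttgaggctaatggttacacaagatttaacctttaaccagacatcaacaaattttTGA
LINC02381: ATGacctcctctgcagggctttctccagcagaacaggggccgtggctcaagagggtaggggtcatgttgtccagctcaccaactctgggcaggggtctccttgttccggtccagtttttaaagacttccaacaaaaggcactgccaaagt
LINC02693: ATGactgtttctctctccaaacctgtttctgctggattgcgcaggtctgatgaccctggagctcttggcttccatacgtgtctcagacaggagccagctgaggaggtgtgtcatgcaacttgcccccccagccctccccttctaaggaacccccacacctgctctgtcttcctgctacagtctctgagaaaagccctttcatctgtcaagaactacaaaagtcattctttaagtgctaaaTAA
RNA-seq counts do not show whether a ribosome stood on these frames, and their translation was not tested.

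Of the 111 identifiers, 110 were found in GENCODE release 44, and LINC03009 was not. GENCODE lists 103 as lncRNA and 7 as transcribed pseudogenes, and none as protein coding. They lay on 23 chromosomes, with the most, 18, on chromosome 1. Their canonical transcripts were shorter than those of the whole table, with a median of 1605 bases against 2987, and ranged from 181 bases for LINC00680 to 21234 for LINC00632, the locus that also gives rise to the circular RNA CDR1-AS. The median transcript had 3 exons, and 15 genes had a single exon. GC content was close to that of all genes, with medians of 48.9% and 49.1%. The longest open reading frame had a median of 81.5 codons, from 13 in LINC00649 to 244 in LINC00937. In 34 genes (30.9%) it reached 100 codons, against 18.7% of the 18866 lncRNA genes in GENCODE, whose median transcript is shorter at 801 bases.

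Many LINC genes were not intergenic in this annotation. In 60 of 110, at least 1 exonic base was shared with another gene identifier. In 4 of these the other identifier carried the same name, which leaves 56, and in 20 the other gene was protein coding. A further measure of crowding is that the span of 26 overlapped that of a protein-coding gene, while 28 were more than 50 kb from one. Whether the authors' counting used strand is not given in the sources used here, so reads of an overlapping gene on the opposite strand cannot be told apart from those of the LINC gene. A near-identical copy, meaning at least 98% identity over at least 150 bases, was found for 13 genes. For 8 of these the copy was itself in the table, and LINC02043 shared such a stretch with the protein-coding gene KRBA2. LINC00863 shared a longer stretch, 1964 bases at 98.8% identity, with the protein-coding gene NUTM2E, which was not in the table. Counts of these 13 genes are uncertain.

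The libraries held 23174532 to 44134833 reads on the listed genes. The labels describe epithelial-like cells from kidney, and all 6 epithelial markers examined were in the table, of which EPCAM and CDH1 were higher in the HA-IPs and none was called towards the Flag-IPs. Their summed normalized counts were 20568 to 21431 in the Flag-IPs against 23591 to 23984 in the HA-IPs. Of the 13 nephron markers examined, 7 were in the table, and UMOD, AQP2, NPHS1, SLC12A3 and CDH16 were among those that were not. The Flag-IPs also held more RNA of heart muscle genes: 28 of 38 markers were in the table, 27 of them were higher in the Flag-IPs at an adjusted p of at most 0.05 (limma), and their summed normalized counts were 118235 to 210994 in the Flag-IPs against 40733 to 55652 in the HA-IPs. The remaining marker, ATP2A2, which other cells also use, had a log2 fold change (HA-IP over Flag-IP) of 0.13 (limma adjusted p = 0.12). Endothelial markers were higher in the Flag-IPs for 6 of 7 in the table, with sums of 197 to 325 against 70.6 to 87.5. Of 10 fibroblast markers, 9 were listed there, of which 6 were higher in the Flag-IPs and 1 in the HA-IPs. The summed counts of these 9 were 36711 to 40530 in the Flag-IPs against 34311 to 36110 in the HA-IPs. Of the 7 nephron markers, 4 were higher in the Flag-IPs against 1 in the HA-IPs. The summed counts of these 7 were 3767 to 4595 in the Flag-IPs against 4422 to 4787 in the HA-IPs. The part of these genes in the differences described below was not tested.

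LINC transcripts were scarce in both IPs. The samples hold no input RNA and no IP from cells without the tags. A low level on ribosomes and a low level in the cell therefore cannot be told apart. Nor can RNA bound to ribosomes be told apart from RNA carried over in the IP. Normalized counts are read counts divided by a size factor for each library, and the median LINC gene had a mean of 27.3 over the 6 libraries, against 473 for all genes and 743 for the 13859 protein-coding genes. Divided by the length of all exons in kilobases, the medians were 9.48 for LINC genes, 99.6 for all genes and 136 for protein-coding genes. Divided by the length of the canonical transcript alone, they were 23.0, 158 and 220.5. Means of LINC genes ran from 8.18 to 2335, with 75 under 50, 21 from 50 to 200 and 15 of at least 200. Only 6 exceeded the median of all genes, and 9 did so per kilobase. No LINC gene was at 0 in any library, but 34 had under 10 reads in at least 1, down to 1 read for LINC00632 in a Flag-IP. The deposited table held only genes with at least 10 reads in at least 3 libraries, so LINC genes below that are not represented.

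**Figure D1:**
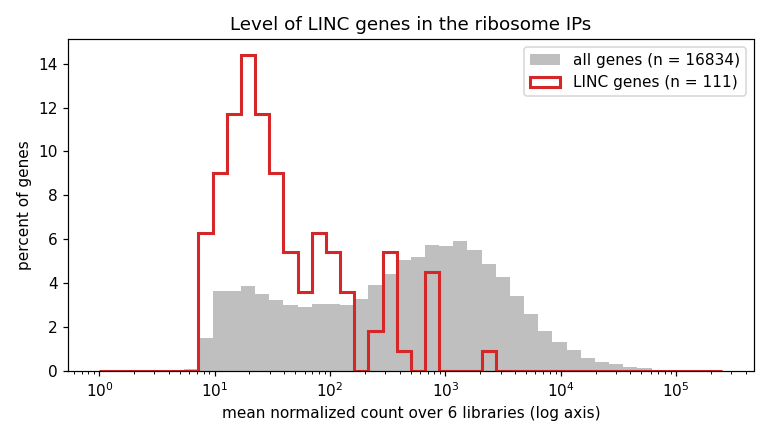
Histogram of the mean normalized count over the 6 libraries (log axis) as a percentage of genes, for all 16834 genes (grey) and the 111 LINC genes (red outline). Most LINC genes lie below 50 normalized counts, whereas the bulk of all genes lies to the right of them.

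All LINC genes together took 0.0423% ± 0.00124 (SD, n = 3) of all normalized counts in the Flag-IPs against 0.0394% ± 0.00027 (SD, n = 3) in the HA-IPs. The shares of the 3 Flag-IPs were 0.0428%, 0.0432% and 0.0409%, and those of the 3 HA-IPs 0.0395%, 0.0396% and 0.0391%, so the groups did not overlap. Their summed normalized counts were 12891, 12956 and 12602 in the Flag-IPs against 12305, 12477 and 12390 in the HA-IPs. The difference between the group means of this sum was 425, of which LINC02381, LINC02210 and LINC00667 had differences that added up to 326. It is a net value: the 66 genes with a higher Flag-IP mean added up to 845 and the 45 others to -419.8. The largest of the latter was -61.5 for LINC00863, a gene with a near-identical copy and so an uncertain count. The sum is that of a few genes, since LINC02693 alone held 18.5% of it and the 10 highest genes 60.7%.

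The LINC gene with the most reads was LINC02693 (ENSG00000212719, chr17:21428263-21574517, minus strand), 8393 bases from KCNJ12, which encodes an inward rectifier potassium channel. Its normalized counts were 2140, 2408 and 2432 in the Flag-IPs against 2307, 2408 and 2317 in the HA-IPs, and its log2 fold change, HA-IP over Flag-IP, was 0.01 (SE 0.060, 95% interval -0.12 to 0.14). The groups overlapped, and the interval leaves room for only a small difference. LINC02693 shares exonic bases with a transcribed processed pseudogene on the same strand and a lncRNA gene on the opposite strand. Reads in the shared parts cannot be told apart here.

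Per kilobase of exon, the highest values were 1365 for LINC00680, 260 for LINC00888, 206 for LINC02593, 198 for LINC02381 and 169 for LINC00869. They were followed by LINC02693, LINC00641, LINC03006, LINC01963 and LINC00294, between 134 and 94.9. These lengths come from GENCODE release 44 and not from the annotation used by the authors. For LINC00680, LINC00888, LINC00869 and LINC03006, GENCODE lists the identifier in the table as a transcribed pseudogene beside a second gene of the same name on the same strand, and LINC00680 is left with 181 bases of exon. Their values per kilobase would be lower if the authors' gene models were longer. LINC00869 also had 5 near-identical copies. The order also depended on the length used. Per kilobase of canonical transcript, LINC02210 was the highest at 2351, followed by LINC02693 at 1851, LINC00680 at 1365 and LINC02593 at 616. The canonical transcripts of LINC02210 and LINC02693 have 288 and 1262 bases, against 15578 and 17439 bases over all exons. Reads on their other exons would raise these values, and per kilobase of exon LINC02210 had 43.5. Of the 10 highest genes, 7 were shared by both rankings. LINC02593, 2907 bases from SAMD11, was among the 4 highest by either length, and its normalized counts of 847, 807 and 873 in the Flag-IPs overlapped those of 852, 869 and 890 in the HA-IPs.

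Few LINC genes differed between the IPs. At an adjusted p of at most 0.05 (limma, two-sided, Benjamini-Hochberg over all genes of the table), 2 of 111 were higher in the Flag-IPs, while 0 were higher in the HA-IPs. This is 1.80%, beside 12.9% of all genes tested (7.1% towards the Flag-IPs, 5.79% towards the HA-IPs). Among genes averaging at least 50 normalized counts, 2 of 36 LINC genes were called (5.56%) beside 14.4% of all such genes, and among those below, 0 of 75 beside 7.58%. At an unadjusted p under 0.05, 8 LINC genes differed, 3 towards the HA-IPs and 5 towards the Flag-IPs, or 7.21% beside 27.2% of all genes. On recovered whole reads, edgeR gave 0 LINC genes higher in the HA-IPs, with 7 at an unadjusted p under 0.05 in either direction, and DESeq2 gave 0 and 5. The groups did not overlap for 13 LINC genes, 3 with higher HA-IPs and 10 with higher Flag-IPs (11.7%, beside 32.2% of all genes, with 16.1% in each direction). The count higher in the Flag-IPs depended on single libraries. It was 0 without Flag-IP 2 and without HA-IP 1, 1 without HA-IP 2 and without HA-IP 3, and 5 without Flag-IP 3, a setting in which 2 LINC genes were higher in the HA-IPs. The calls over the whole table moved with it, from 2171 to 620 without Flag-IP 2, 780 without HA-IP 1 and 3059 without Flag-IP 3.

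The median log2 fold change of LINC genes was -0.07, beside -0.0049 for all genes, with quartiles of -0.27 and 0.14. Negative values, on the Flag side, were found for 64 of 111 (57.7%, beside 50.9% of all genes). The median turned to 0.13 under quantile normalization and to 0.0028 once the dependence on GC content and transcript length was removed, so its sign changed with the scaling. The median over all genes was 0.044 and -0.0040 in these settings. By level, the LINC medians were -0.03 below 50 normalized counts, -0.11 from 50 to 200 and 0.01 above, beside -0.14, -0.06 and 0.02 for all genes of those levels.

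**Figure D2:**
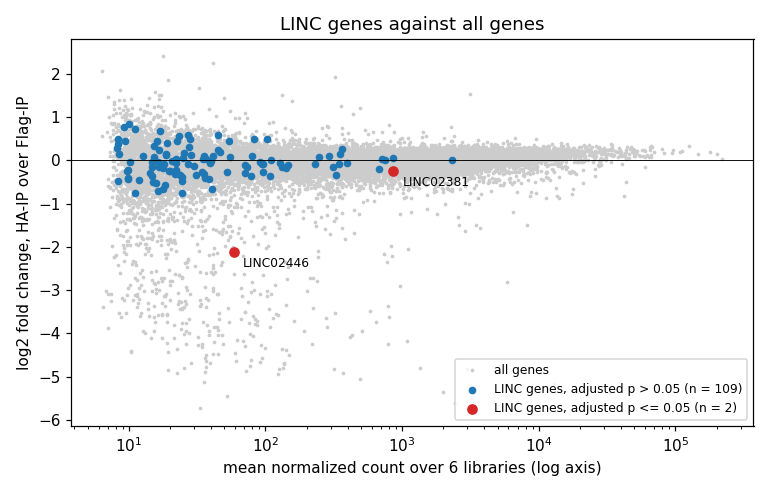
The log2 fold change, HA-IP over Flag-IP, against the mean normalized count over 6 libraries (log axis), for all genes (grey) and LINC genes (blue: adjusted p above 0.05, n = 109; red: at most 0.05, n = 2). LINC02446 is the only LINC gene below -1, and LINC02381 is called at a change of -0.25.

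LINC02446 had the largest difference of any LINC gene. The gene (ENSG00000256039, chr12:10553362-10572761, plus strand) has 2 exons in its canonical transcript, shares no exonic base with another gene and lies in the region of the natural killer cell receptor genes. Its normalized counts were 89.6, 133 and 53.5 in the Flag-IPs against 6.35, 22.8 and 45.2 in the HA-IPs, from 58 to 125 reads and 9 to 41 reads. All 3 Flag-IPs were above all 3 HA-IPs, but the libraries of each group were far apart, with means of 92.0 ± 39.8 and 24.8 ± 19.5 (SD, n = 3). The log2 fold change was -2.12 (SE 0.55, 95% interval -3.33 to -0.91, limma adjusted p = 0.029). The adjusted p from limma was 0.14 without Flag-IP 2, 0.080 without HA-IP 1 and 0.081 without HA-IP 2, where the log2 fold change was -1.81, -1.39 and -2.24, and DESeq2 gave 0.097. In the same order of libraries, the summed normalized counts of the heart muscle markers were 210994, 157637 and 118235 against 42409, 40733 and 55652, and their part in this difference was not tested.

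The nearest protein-coding gene to LINC02446 differed in the same direction. EIF2S3B, 30227 bases away on the same strand, is an intronless copy of EIF2S3, which encodes the gamma subunit of the initiation factor eIF2. Its normalized counts were 79.2, 107 and 58.1 in the Flag-IPs against 17.6, 16.8 and 24.3 in the HA-IPs, with a log2 fold change of -1.98 (SE 0.28, limma adjusted p = 0.0016). The order of the Flag-IPs was the same in both genes, highest in Flag-IP 2 and lowest in Flag-IP 3. Among the HA-IPs both were highest in HA-IP 3, but the order of the others differed. LINC02446 had 6.35 in HA-IP 1 and 22.8 in HA-IP 2, against 17.6 and 16.8 for EIF2S3B. EIF2S3 itself had a log2 fold change of 0.12 (limma adjusted p = 0.090).

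LINC02381 differed far less but was measured more closely. It lies at chr12:54126019-54147485 on the plus strand (ENSG00000250742, 3 exons in the canonical transcript), where its span overlaps that of SMUG1, a uracil-DNA glycosylase of base excision repair, on the opposite strand. It also shares exonic bases with a lncRNA gene on the opposite strand (ENSG00000260470), whose reads cannot be told apart from its own without strand. The normalized counts of LINC02381 were 939, 945 and 921 in the Flag-IPs against 747, 850 and 763 in the HA-IPs, from 692 to 1059 reads in each library. The groups did not overlap, and the 3 Flag-IPs lay within a narrow range. The log2 fold change was -0.25 (SE 0.070, 95% interval -0.40 to -0.10, limma adjusted p = 0.037), beside -0.16 (limma adjusted p = 0.23) for SMUG1. The limma adjusted p of LINC02381 was 0.14 without Flag-IP 2, 0.14 without HA-IP 1 and 0.12 without HA-IP 3, at log2 fold changes of -0.24, -0.22 and -0.23, and under quantile normalization it was 0.064.

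Of the LINC genes that were not called, LINC00667 and LINC02210 had the clearest separation among those with a mean of at least 50. LINC00667 had 392, 380 and 328 normalized counts in the Flag-IPs against 310, 273 and 284 in the HA-IPs, with a log2 fold change of -0.34 (95% interval -0.57 to -0.11, limma adjusted p = 0.054). Its exons overlap those of the opposite-strand gene ZBTB14, a zinc finger transcription factor. It was called without Flag-IP 3 and when every library was scaled to the same total. LINC02210 had 721, 796 and 665 against 615, 655 and 610 normalized counts, with a log2 fold change of -0.21 (limma adjusted p = 0.12). It shares exonic bases with the read-through gene LINC02210-CRHR1 on the same strand, and reads in the shared part cannot be assigned to one of them.

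On the HA side, the largest separation in that set was that of LINC02983, a single-exon gene 863 bases from TNRC18. Its normalized counts were 54.5, 29.8 and 54.4 in the Flag-IPs against 55.7, 63.4 and 66.2 in the HA-IPs, with a log2 fold change of 0.46 (limma adjusted p = 0.29). The groups were apart by little, and Flag-IP 2 was well below the other Flag-IPs. LINC00857, with a mean under 50, also had every HA-IP above every Flag-IP. It had 39.0, 36.2 and 32.3 against 59.3, 55.5 and 48.5 normalized counts, a log2 fold change of 0.59 (95% interval 0.11 to 1.07, limma adjusted p = 0.10), and was called under quantile normalization.

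**Figure D3:**
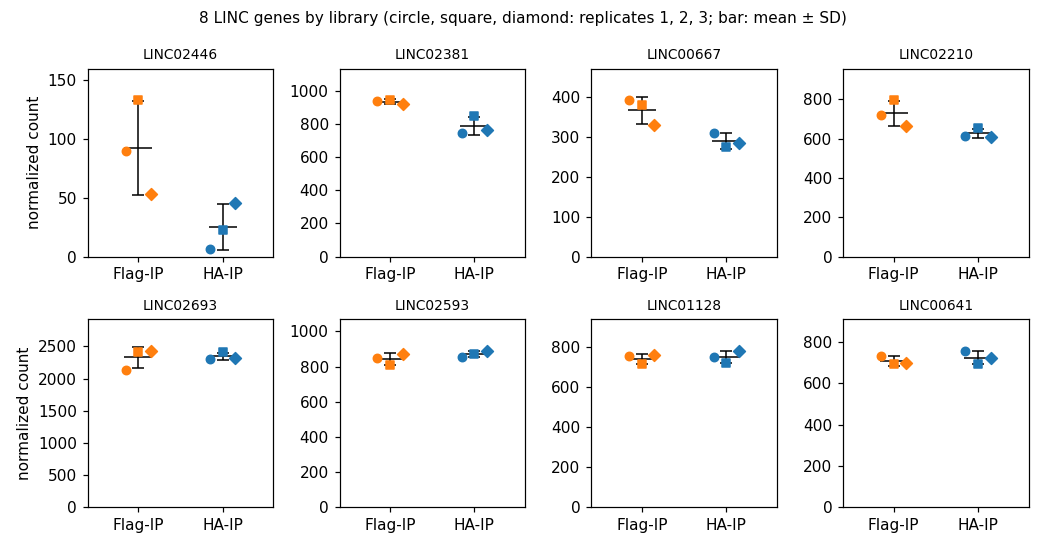
Normalized counts (axes from 0) of 8 LINC genes in each Flag-IP (orange) and HA-IP (blue); circles, squares and diamonds are replicates 1, 2 and 3, and bars give the mean ± SD. The upper 4 genes have no overlap between the groups, whereas the lower 4, which include LINC02693 at 2140 to 2432, overlap.

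The precision differed with the level. The 95% interval of the log2 fold change reached a median of 0.79 to either side of the estimate for the 75 genes under 50 normalized counts, 0.44 for the 21 genes from 50 to 200 and 0.22 for the 15 above. The interval lay wholly between -1 and 1 for 15 of 15, 19 of 21 and 27 of 75 of them, or 61 of 111 in all. For the 15 LINC genes with at least 200 normalized counts a 2-fold difference was therefore outside the interval in either direction, while for most genes under 50 the interval still included it in at least 1 direction.

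**Figure D4:**
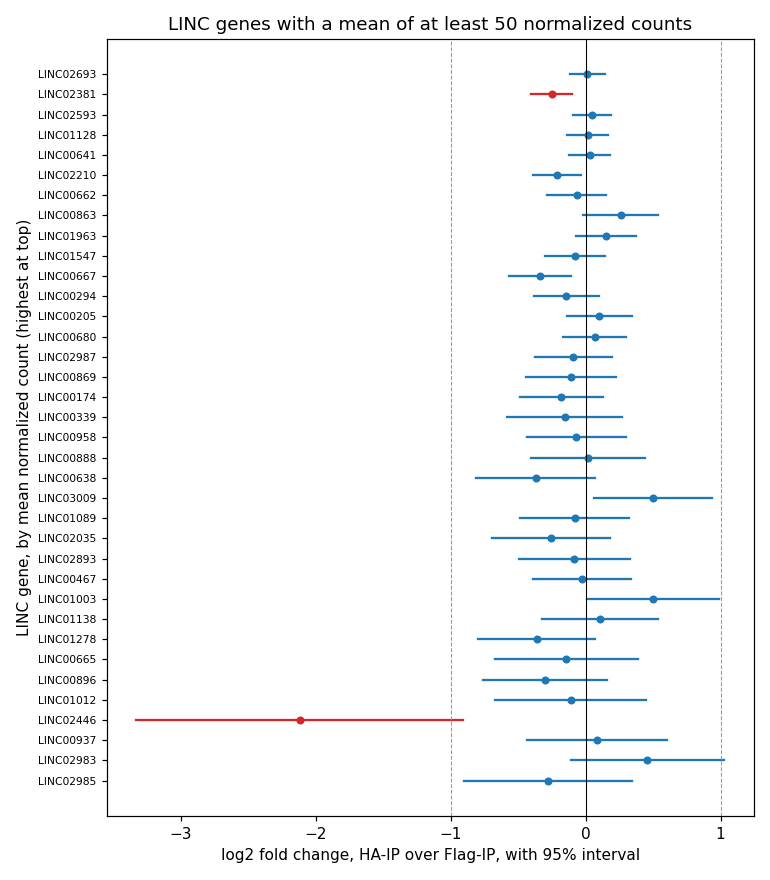
The log2 fold change, HA-IP over Flag-IP, with its 95% interval (limma) for the 36 LINC genes averaging at least 50 normalized counts, the highest at the top, in red where the adjusted p was at most 0.05. Dashed lines mark -1 and 1, and LINC02446 stands alone at -2.12.

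A list of 24 LINC genes often studied in cell lines had 11 members in the table, of which 0 were called by limma (1 at an unadjusted p under 0.05, LINC00667), with a median log2 fold change of -0.03. Its higher members were LINC01128, with means of 743 ± 25.1 and 752 ± 31.0 normalized counts in the Flag-IPs and HA-IPs (SD, n = 3), LINC00662 with 406 ± 14.7 and 389 ± 45.1, and LINC00205 with 279 ± 24.1 and 300 ± 28.1. LINC00339, LINC00888, LINC00467, LINC00665 and LINC00511 had log2 fold changes between -0.16 and 0.19. LINC00461, the host of a miR-9 precursor, had 37.7, 47.9 and 26.7 against 23.3, 35.7 and 33.1 normalized counts, a log2 fold change of -0.26 with an interval of -0.91 to 0.38. LINC00632 had 1 to 12 reads in the Flag-IPs against 6 to 16 in the HA-IPs and an interval from -0.67 to 2.23, too wide to place it.

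The nearest protein-coding gene was in the table for 84 LINC genes (80 distinct genes). The neighbour was the more abundant in normalized counts in 76 of the 84 pairs, with a median of 796, a comparison that does not take transcript length into account. Of the 80 neighbours, 7 were called towards the HA-IPs and 5 towards the Flag-IPs (15%, beside the 12.9% of all genes), with a median log2 fold change of 0.04. Except for EIF2S3B, none of these 12 stood beside a called LINC gene. LINC00461, for example, had a log2 fold change of -0.26 (limma adjusted p = 0.62) beside -0.68 (limma adjusted p = 0.0019) for MEF2C, a transcription factor of muscle and neurons, and LINC01963 had 0.15 (limma adjusted p = 0.38) beside 0.27 (limma adjusted p = 0.0065) for XRCC5, a subunit of the Ku DNA repair complex. Across the 84 pairs, Spearman's rho between the log2 fold changes was 0.12, a description over genes that share the same 6 libraries.

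In 6 LINC genes a protein-coding gene starts on the other strand within 2000 bases. These pairs were LINC01126 with ZFP36L2, LINC00857 with ANXA11, LINC01089 with SETD1B, LINC00649 with ATP5PO, LINC01547 with SLX9 and LINC00205 with POFUT2. Of them ZFP36L2, which promotes mRNA decay, was higher in the HA-IPs with a log2 fold change of 0.33 (limma adjusted p = 0.044), beside -0.07 for LINC01126 (limma adjusted p = 0.91), and the other 5 partners and all 6 LINC genes were not called.

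Sequence features of the transcripts went along with level and fold change only loosely. Over the 110 annotated LINC genes, which share the same 6 libraries, Spearman's rho of the mean normalized count was 0.23 with transcript length, 0.20 with the length of the open reading frame and -0.0052 with GC content, and that of the log2 fold change was 0.12, -0.045 and 0.11 with the same features. The 34 genes with a frame of at least 100 codons had a median of 11.8 normalized counts per kilobase and a median log2 fold change of -0.09, and the other 76 had 8.62 and -0.06. The 7 transcribed pseudogenes had a median of 125 per kilobase, which carries the doubt about gene models given above, and 0 of them were called.

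Calls were also few in other noncoding classes of the table. Of 1725 genes that GENCODE lists as lncRNA, 8 were called towards the HA-IPs and 17 towards the Flag-IPs (1.45%), with a median log2 fold change of -0.07 and a median level of 28.0 normalized counts, beside 13.9% called among protein-coding genes. Antisense genes, named for the gene they oppose, had 1 and 3 called of 298 (1.34%), and divergent or intronic transcripts 0 and 1 of 105 (0.952%). The differences between classes were not tested. Of 23 lncRNAs with names of their own, OIP5-AS1, the human counterpart of the conserved lncRNA Cyrano, was higher in the Flag-IPs with a log2 fold change of -0.29 (limma adjusted p = 0.027), and MIR17HG, the precursor of the miR-17 to miR-92 cluster, was the 1 that was higher in the HA-IPs, with a log2 fold change of 1.38. The nuclear lncRNAs MALAT1 and NEAT1 had log2 fold changes of 0.03 (limma adjusted p = 0.89) and -0.33 (limma adjusted p = 0.17), and the cytoplasmic NORAD 0.04 (limma adjusted p = 0.71). Of the 18 snoRNA host genes named SNHG, 1 was called, SNHG32, with a log2 fold change of -0.29 (limma adjusted p = 0.031).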

How the data were processed

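Per the labels and the study's methods, RNA from 3 Flag-IPs and 3 HA-IPs was poly(A)-selected and sequenced. Per the submitters' processing notes, the authors used Trimmomatic 0.36, STAR 2.5.2b and Subread 1.5.2 on GRCh38. The study's methods word the filter as excluding genes with under 10 reads in at least 3 libraries. In the deposited values every gene had at least 10 reads in at least 3 libraries. Some genes with under 10 reads in 3 libraries, such as LINC00471, were kept. The deposited values are a normalized signal, which by its steps the authors made by dividing the reads of each gene by 1 scaling factor per library. The deposited log2 fold change and adjusted p-value columns of the authors' own DESeq2 comparison were not used. Whole reads were recovered from the steps between low values, and 100% of values came out whole within 0.001.

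Fold changes came from limma 3.58.1 (R 4.3.3) on log2(normalized count + 1) with a variance trend, two-sided, with Benjamini-Hochberg adjustment over all 16834 genes. Fold changes of low genes are understated on this scale, and with 3 libraries a group an exact permutation test cannot go below p = 0.1. Because the values are not raw counts, edgeR 4.0.16 and DESeq2 1.42.0 on the recovered reads were alternatives. The fits were tested on simulated data with changes of a single size, placed only in genes with higher counts. That test does not cover genes as low as most LINC genes or a change as small as that of LINC02381. Annotation was GENCODE release 44, copies were searched with blastn 2.17.0, trends with GC content and length were removed with 5-degree splines (MASS 7.3.60.0.1), and plots were drawn with matplotlib 3.10.9 in Python 3.11.15.

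The members and lists were chosen with earlier results of these data known. Named were the called LINC genes, the 10 highest per kilobase, the 3 uncalled genes with a mean of at least 50 and the largest gap between groups relative to their spread, and the known list. LINC00857, LINC00863, LINC02043, LINC03009, LINC00649, LINC00937, LINC01126, LINC01089, LINC01547 and the genes beside them were named after their values or annotation were seen.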

Additional observations from a re-analysis of the deposited data

How the results depend on the processing

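The limits lie in the low counts and in single libraries. Of 20 settings, LINC02446 was called in 14 and LINC02381 in 13, and 9 LINC genes were called in at least 1. No called value changed sign. The number of LINC genes higher in the HA-IPs, 0 as reported, was 1 under quantile normalization, 1 with the trends in GC content and length removed, 1 without replicate 3 of both groups, and 0 to 2 as each replicate was left out. The number higher in the Flag-IPs, 2 as reported, was 1 under quantile normalization, 1 with DESeq2, 1 without replicate 3 of both groups, 0 without a variance trend, 0 at an adjusted p of at most 0.01, and 0 to 5 as each replicate was left out. The fit without a variance trend called 188 genes of the whole table. The median log2 fold change, -0.07 as reported, was 0.13 under quantile normalization, -0.12 with the same total per library, 0.0028 with the GC and length trends removed, and -0.13 to -0.040 as each replicate was left out. Over all genes the median was 0.044 under quantile normalization, -0.057 with the same total per library and -0.0040 with the trends removed. Apart from the stricter threshold, the cause was not tested. Apart from the fits with the replicate block, given next, the other settings kept the counts within 1.5 times the reported ones and the median within the spread of the libraries' medians.

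Over 13141 genes, same-numbered deviations from the group means correlated at -0.156, 0.0306 and -0.31. Not every library correlated best with its own number, so the values gave no sign of pairing by replicate number. The labels do not say whether same-numbered IPs shared a culture. Deviations from means of 3 libraries cannot settle it. With the replicate number as a block, the LINC genes called were 0 for the HA-IPs and 0 for the Flag-IPs (1662 genes called in the whole table), with limma adjusted p-values of 0.052 for LINC02446 and 0.062 for LINC02381. The block together with removal of the GC and length trends gave 2 higher in the Flag-IPs and a median of 0.0028.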

Other observations

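A further 59 genes of the table carry a LINC name in GENCODE release 44 but have no symbol (58) or another symbol (1) in the table, and are not among the 111. Of these, 2 were higher in the Flag-IPs against 0 in the HA-IPs. This is 3.39%, beside 12.9% of all genes (7.1% towards the Flag-IPs, 5.79% towards the HA-IPs). The 59 genes had a median level of 39.2 normalized counts and a median log2 fold change of -0.06. At an unadjusted p under 0.05, limma counted 4 of the 59, beside 27.2% of all genes. LINC01709 had 15.6, 33.0 and 27.7 normalized counts in the Flag-IPs against 0.706, 0 and 6.62 in the HA-IPs, with a log2 fold change of -3.43 (limma adjusted p = 0.011). LINC03068 had 13.0, 14.9 and 15.7 in the Flag-IPs against 6.35, 0.990 and 3.31 in the HA-IPs, with a log2 fold change of -1.96 (limma adjusted p = 0.043). Both were low in the HA-IPs, where a few reads set the value, and were named after their values were seen. Each had under 10 reads in every HA-IP. They met the filter of at least 10 reads in at least 3 libraries only through the Flag-IPs. Their direction was thus partly set by that filter, and their p-values are not independent of it.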
